A study of Mus musculus with 15 samples.

Results

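Gene expression in mouse skin at day 3 of a wounding time course was compared with that at day 0, using the 3 libraries labelled day 3 and the 3 labelled day 0, which are 6 of the 15 libraries of the series. Every library came from skin of C57BL/6 mice, the common inbred laboratory strain, and no genotype or treatment other than the wound is labelled. All 15 libraries, those of day 0 included, carry the label of a wound as the stress, so day 0 is taken here as the first time of the course and not as skin known to be unwounded. The mice's age and sex, the wound's size and site, and whether the libraries of 1 time stem from different animals or from pools are not given in the labels. The p-values therefore measure the spread between these libraries, which may be technical. The skin had been cleared of muscle and fat and polyadenylated RNA was sequenced.

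A skin wound is closed by several processes that overlap in time. Neutrophils and then monocytes enter from the blood, keratinocytes at the wound edge take on a spreading and dividing state with its own set of keratins, and vessel sprouts and fibroblasts later build the granulation tissue on which the new epidermis rests. The first days after injury are generally described as the passage from inflammation to this building phase. The genes below are grouped by these roles, first those of the epidermis and of oxygen and energy supply, then vessels, matrix, immune cells, nerve and the clock.

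The 6 libraries held between 39536576 and 58558361 estimated counts, and mitochondrial genes took 5.29% to 6.30% of them at day 0 and 5.34% to 6.30% at day 3. Genes of epidermis (Krt5, Krt14, Krt1, Krt10, Lor), dermal fibroblasts (Col1a1, Col3a1, Dcn, Lum, Pdgfra) and endothelium (Pecam1, Cdh5, Emcn) were present in each of the 6 libraries, the lowest being Emcn at 12.9 CPM (a gene's counts relative to the total of its library, after trimmed-mean scaling of the totals, TMM). A list of 17 skeletal muscle genes summed to between 8512 and 16930 CPM although the skin had been cleared of muscle, and the ranges of both groups overlapped. Day 0 replicate 1 lay apart from the other day 0 libraries. On the first principal component of the 6 libraries, which held 54.1% of their variance, it stood at -21.3. That was beside the day 3 libraries, at -21.8 to -47.9, and far from day 0 replicates 2 and 3, at 58.9 and 72.6. Day 0 replicate 1 differed by at least 4-fold from day 0 replicates 2 and 3 in 469 and 539 genes, and from the day 3 libraries in fewer, 246 to 320. Day 0 replicates 2 and 3 differed from each other in 315. Values are therefore given below for each library, always in the order of replicates 1, 2 and 3, and results that rest on 1 library are given with and without it.

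Of 17136 genes tested, 135 (0.788%) were called different at day 3, which means an adjusted p under 0.05 in the quasi-likelihood test of edgeR, with p-values adjusted after Benjamini and Hochberg over all genes tested. At day 3, 102 genes were higher (0.595% of all tested) and 33 lower (0.193%), 68 and 26 of them by at least 2-fold. In all 102 rises each day 3 library lay above each day 0 library, as in 13.1% of all genes tested, and in 27 of the 33 falls each day 3 library lay below, as in 12.4% of all genes. The adjusted p-values of the called genes ran only from 0.0303 to 0.0496, and the calls depended on single libraries. Without day 0 replicate 2, day 0 replicate 3, day 3 replicate 1 or day 3 replicate 2 edgeR called 0 genes (the unadjusted p was under 0.05 in 1617, 2079, 2049 and 1954), without day 3 replicate 3 it called 59, and without day 0 replicate 1 it called 629 (3.61%), among them 96 of the 102 rises and all 33 falls. DESeq2 on the same 15 libraries called 943 (5.5%), among them all 135. In the 102 rises day 0 replicate 1 was above both other day 0 libraries in 55 and below both in 19, and in the 33 falls it was below both in 28. Over all genes tested it was above both in 39.3% and below both in 40.8%.

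**Figure D1:**
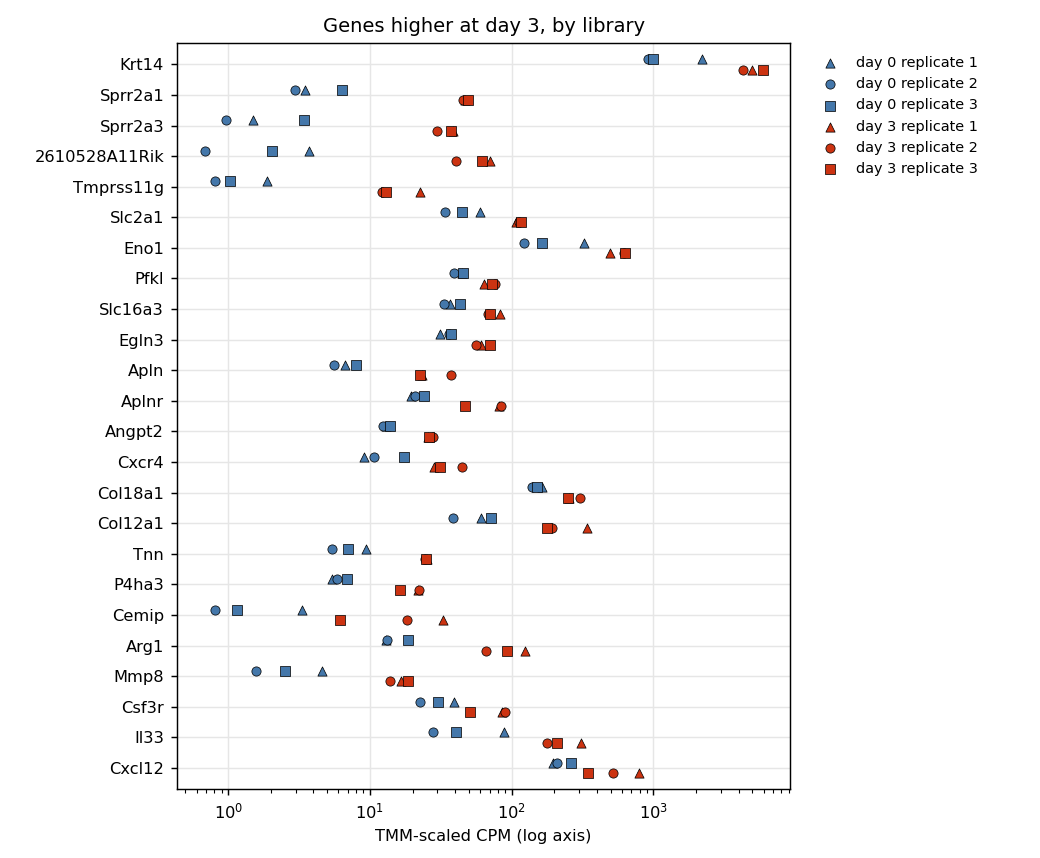
Level of 24 genes that rose, in each of the 6 libraries, as TMM-scaled CPM on a log axis (blue, day 0; red, day 3; triangle, circle and square for replicates 1, 2 and 3). In every gene the 3 red symbols lie to the right of the 3 blue ones, and the blue triangle of day 0 replicate 1 is often the blue symbol nearest to them, as in Krt14, Eno1 and Il33.

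Among genes known from the epidermis, the keratin Krt14, copies of Sprr2a and the membrane protease Tmprss11g rose, and the sphingolipid enzyme Smpd3 fell. Krt14, the keratin of the basal layer, stood at 2215, 923 and 1000.5 CPM at day 0 and 4934, 4299 and 5897 CPM at day 3. Its rise was 1.87 ± 0.38 (SE) on the log2 scale (edgeR adjusted p = 0.046), and day 0 replicate 1 was more than 2-fold above both other day 0 libraries. Krt14 was the only one called of 16 genes of basal keratinocytes and their anchorage to the basement membrane, of which 9 had no overlap and were higher at day 3 and 0 lower, with a median log2 difference of 0.56 against -0.0091 over all genes. Without day 0 replicate 1, 7 of the 16 rose (2.42% of all genes did so then).

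Of 22 genes of wound-edge keratinocytes, 1 rose, 0 fell and 21 did not pass. The wound keratins themselves did not pass. Krt6a, named here after its values were seen, had 707, 54.3 and 95.2 CPM at day 0 and 2299, 1993 and 2366 CPM at day 3 (edgeR adjusted p = 0.108), so that all 3 day 3 libraries were above all of day 0 but the highest day 0 library was 13.02-fold above the lowest. Of the 31-base words of their transcripts, 62.0% of those of Krt6a and 57.0% of those of Krt6b occur in other genes. Summed, Krt6a and Krt6b gave 1260.5, 71.8 and 153 CPM at day 0 and 4931, 3919.7 and 5319.8 CPM at day 3. Summed over the 22 genes the level was 3229.9, 941 and 1149.5 CPM at day 0 and 8089, 6971 and 8344 CPM at day 3, and 8 of the 22 rose without day 0 replicate 1.

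The cornified envelope is the protein shell of the outermost epidermal cells, and the small proline-rich proteins encoded by the Sprr genes are cross-linked into it. Sprr2a1, Sprr2a2 and Sprr2a3 lie in 1 cluster on chromosome 3 and their coding sequences are near-identical, so reads cannot be assigned among them with certainty. Their coding sequences of 252 bases are printed here because the rise of each copy can be read only together with the others. Sprr2a1 and Sprr2a2 have the same coding sequence in GENCODE M21 (GRCm38, forward strand, genes at chr3:92215799-92221911 and chr3:92215920-92256724), and Sprr2a3 (chr3:92285417-92291405) differs from it by 3 substitutions, G63A, G159T and A192T, counted from the first base of the start codon, which are in capitals. The annotated spans of Sprr2a1 and Sprr2a2 overlap, because 1 transcript model of Sprr2a2 starts within the first exon of Sprr2a1, but their coding sequences lie apart, at chr3:92219092-92219343 and chr3:92253905-92254156.
Sprr2a1: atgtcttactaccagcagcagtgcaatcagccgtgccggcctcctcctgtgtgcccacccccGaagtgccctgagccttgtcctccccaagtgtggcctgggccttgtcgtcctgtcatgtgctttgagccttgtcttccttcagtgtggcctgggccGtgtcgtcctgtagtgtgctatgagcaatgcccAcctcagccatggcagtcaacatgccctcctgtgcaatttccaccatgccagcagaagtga
Sprr2a3: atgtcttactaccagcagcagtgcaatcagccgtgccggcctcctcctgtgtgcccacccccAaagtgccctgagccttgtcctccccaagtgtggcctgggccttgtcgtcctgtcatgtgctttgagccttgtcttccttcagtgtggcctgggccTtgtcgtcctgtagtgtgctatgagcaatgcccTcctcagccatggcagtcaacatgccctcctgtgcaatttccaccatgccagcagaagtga
Of the 31-base words of their transcripts, 96.9% of those of Sprr2a1, 97.8% of Sprr2a2 and 73.6% of Sprr2a3 also occurred in another gene. Sprr2a1 rose from 3.49, 2.96 and 6.31 to 46.9, 45.3 and 48.9 CPM and Sprr2a3 from 1.49, 0.961 and 3.41 to 38.3, 29.8 and 37.6 CPM, by 3.46 ± 0.66 and 4.16 ± 0.78 on the log2 scale (4.83 for Sprr2a3 without day 0 replicate 3). Sprr2a2, to which most of the reads were assigned, had 33.7, 36.6 and 120.4 CPM at day 0 and 1251, 859.7 and 1228 CPM at day 3 and just missed the threshold (edgeR adjusted p = 0.057). Summed over the 3 copies, which does not depend on how reads were divided among them, the level was 38.7, 40.5 and 130.1 CPM at day 0 and 1336, 935 and 1315 CPM at day 3, a 17.1-fold difference of the means. Here day 0 replicate 1 was the lowest day 0 library and replicate 3 the highest. Sprr2k, another member of the family, rose from at most 0.0253 CPM in each day 0 library to 1.21, 0.553 and 0.837 CPM. Of 30 tested genes of epidermal differentiation 2 rose, both Sprr2a copies, 0 fell, and 11 did not overlap and were higher at day 3.

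Other called genes known from epithelia follow. 2610528A11Rik, which encodes a secreted peptide of epithelia and ligand of the receptor Gpr15, rose 26.7-fold, from 3.71, 0.683 and 2.02 to 70.6, 40.8 and 61.5 CPM, by 4.74 on the log2 scale and by 5.39 without day 0 replicate 1. Tmprss11g, a membrane-bound serine protease of epithelia, rose 12.7-fold, from 1.88, 0.81 and 1.03 to 22.6, 12.2 and 12.9 CPM. It was the only one called of 33 tested epithelial proteases and inhibitors, of which 17 were higher at day 3 with no overlap and 1 lower, with a median log2 difference of 0.93. Without day 0 replicate 1, 11 of these 33 rose, and with DESeq2 14 did (3.43% of all genes did so with DESeq2). Rbp2, a cellular retinol-binding protein, rose from 10.9, 4.02 and 5.72 to 31.8, 22.7 and 33.8 CPM. Crabp1, which binds retinoic acid in the cytoplasm, rose from 25.9, 28.4 and 23.6 to 77.4, 86.4 and 60.8 CPM, and its day 0 libraries lay within a narrow range. Dsg1c, a desmosomal cadherin of cell-cell adhesion, rose from 2.05, 1.42 and 1.21 to 3.99, 5.08 and 4.45 CPM.

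Smpd3, a neutral sphingomyelinase that releases ceramide, fell 3.08-fold, from 50.96, 68.5 and 100.4 to 17.5, 23.1 and 30.6 CPM (edgeR adjusted p = 0.0334). Of 26 genes of epidermal lipids it was the only one called, 5 were higher and 3 lower with no overlap, and the median log2 difference was 0.046. The list as a set thus lay near the background of 13.1% and 12.4%. Pnpla3, a lipid droplet enzyme, fell from 27.2, 21.1 and 22.6 to 11.3, 7.31 and 10.4 CPM. Gys2, the liver-type glycogen synthase, was low throughout and fell from 0.578, 2.00 and 1.77 to 0.236, 0.164 and 0.143 CPM, and day 0 replicate 1 was below the other day 0 libraries.

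Genes of the response to low oxygen and of glycolysis and those of vessel sprouting were the 2 lists with the most calls, 5 each. Under low oxygen the factor Hif1a escapes degradation and binds a short core sequence, ACGTG, near genes for glucose uptake, glycolysis and lactate export. Of 30 genes in the list 5 rose, 0 fell and 25 did not pass, 17 were higher at day 3 with no overlap and 0 lower, and the median log2 difference was 0.40. Without day 0 replicate 1, 10 rose. Promoters of 3 of the called members are shown because they hold the core within the 250 bases before the RefSeq start (GRCm38.p6). Bases are written 5′ to 3′ along the gene's strand, and capitals mark ACGTG in that direction.
Egln3, chr12:54203875-54204124, reverse strand: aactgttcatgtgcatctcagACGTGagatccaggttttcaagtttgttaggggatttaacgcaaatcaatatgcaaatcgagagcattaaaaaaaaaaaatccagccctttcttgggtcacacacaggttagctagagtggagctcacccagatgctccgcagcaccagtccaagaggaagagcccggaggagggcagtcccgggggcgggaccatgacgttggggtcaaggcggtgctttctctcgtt
Slc16a3, chr11:120948817-120949066, forward strand: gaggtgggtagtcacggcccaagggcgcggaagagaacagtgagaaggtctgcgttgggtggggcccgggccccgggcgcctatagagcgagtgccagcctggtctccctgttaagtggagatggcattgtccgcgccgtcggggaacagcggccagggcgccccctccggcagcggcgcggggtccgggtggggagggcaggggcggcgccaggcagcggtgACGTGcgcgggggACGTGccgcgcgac
Slc2a1, chr4:119108495-119108744, forward strand: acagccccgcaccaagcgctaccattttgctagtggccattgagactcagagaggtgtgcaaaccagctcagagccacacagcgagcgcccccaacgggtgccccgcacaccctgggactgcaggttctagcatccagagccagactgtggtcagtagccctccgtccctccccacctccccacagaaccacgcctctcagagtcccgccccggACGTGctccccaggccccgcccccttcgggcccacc
The match began 229 bases before the start in Egln3, 27 and 14 bases before it in Slc16a3 and 36 bases before it in Slc2a1. With both strands searched, ACGTG occurred in this window in 15 of the 28 list members with a promoter in the table (53.6%), in 22 of 77 of the genes called higher (28.6%), in 2 of 18 of those called lower (11.1%) and in 16.6% of all 27025 promoters. It also occurred in 10 of 16 promoters of the circadian clock list (62.5%), a higher share than in the hypoxia list, and in 0 of 17 of the vessel sprouting list. It is contained in the E-box CACGTG, which occurred in 6.05% of all promoters and in 3 of the same 28 and 5 of the same 16. The called members Pfkl and Eno1 held no ACGTG in the window.

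The 5 called members cover glucose entry, glycolysis, lactate exit and oxygen sensing. Slc2a1, the glucose transporter GLUT1, rose from 60.04, 33.9 and 44.4 to 108, 113 and 117 CPM, by 1.29 ± 0.22 on the log2 scale. Pfkl, a phosphofructokinase that commits glucose to glycolysis, rose from 44.3, 39.2 and 45.1 to 64.4, 76.1 and 72.6 CPM, by 0.73 ± 0.11. Slc16a3, which exports lactate, rose from 36.9, 33.3 and 43.1 to 82.6, 67.7 and 70.2 CPM, by 0.96 ± 0.16. Egln3, an oxygen-dependent hydroxylase that marks Hif1a for degradation and is itself a target of it, rose from 31.3, 36.3 and 37.5 to 61.1, 56.1 and 70.8 CPM, by 0.84 ± 0.15. In Pfkl, Slc16a3 and Egln3 the day 0 libraries lay close together, replicate 1 included. Hif1a, which is outside the list, also rose at the level of its transcript, from 193, 127 and 138 to 279, 284 and 248 CPM. Fam162a, a mitochondrial protein induced by low oxygen, rose from 50.4, 44.1 and 43.7 to 91.8, 107 and 102 CPM.

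Eno1, the glycolytic enolase, rose from 323, 123 and 165 to 493, 626 and 628 CPM, by 1.52 ± 0.28, but its value is tied to that of Eno1b, a near-identical copy. Eno1b had 0.0932, 123 and 150.0 CPM at day 0 and 0.219, 0.0819 and 0.184 CPM at day 3. Of the 31-base words of Eno1b 89.2% occurred in other genes, and 28.5% of those of Eno1 did. The sum of both genes was 323, 246 and 315 CPM at day 0 and 493, 626 and 628 CPM at day 3, a 1.98-fold difference of the means in place of 2.86-fold for Eno1 alone, still with no overlap. After summing, day 0 replicate 1 no longer stood apart from replicates 2 and 3.

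Of 22 genes of serine, glycine and amino acid supply 2 rose and 0 fell. Tdh, the mitochondrial enzyme that breaks down threonine, rose from 2.54, 1.09 and 2.28 to 14.7, 14.9 and 12.4 CPM, and Mthfd1l, of mitochondrial folate metabolism, rose from 7.53, 4.98 and 7.96 to 10.8, 15.1 and 12.9 CPM. Arg1, the arginase that turns arginine into ornithine and is a marker of alternatively activated macrophages, rose 6.31-fold, from 12.99, 13.2 and 18.5 to 124, 65.5 and 92.1 CPM, and was the only one called of 15 genes of arginine and polyamine metabolism.

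Endothelial sprouts are led by tip cells, which make the peptide apelin, angiopoietin 2 and the chemokine receptor Cxcr4. Of 22 genes of vessel sprouting 5 rose, 0 fell and 17 did not pass. In 16 of them day 3 was higher with no overlap and in 1 lower, and the median log2 difference was 0.80. Apln, which encodes apelin, rose 4.13-fold, from 6.65, 5.62 and 7.96 to 23.4, 37.6 and 22.6 CPM, and Aplnr, its receptor, rose 3.29-fold, from 19.4, 20.9 and 24.1 to 80.9, 84.5 and 46.6 CPM. Angpt2, which loosens the contact of vessels with their supporting cells, rose from 12.9, 12.4 and 13.8 to 25.5, 27.8 and 26.2 CPM, and the libraries of a group differed by at most 1.11-fold. Cxcr4 rose from 9.15, 10.8 and 17.3 to 28.2, 44.5 and 31.3 CPM, and Cxcl12, its ligand, which is made by fibroblasts and counted in other lists, rose from 195, 209 and 262 to 796, 520.2 and 349 CPM. Col18a1, a basement membrane collagen whose end fragment is endostatin, rose from 165, 139.6 and 151 to 255, 305 and 251 CPM. Among these 6 genes day 0 replicate 1 was the highest day 0 library only for Col18a1. Without it 7 of the 22 rose, and without day 5 replicate 2 and day 7 replicate 3, whose hair keratins stood apart, 11 rose (2.75% of all genes did so then).

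Other called genes of vessels lie outside that list. Selp, the adhesion molecule P-selectin through which leukocytes first attach to the vessel wall, rose from 11.1, 8.98 and 9.27 to 27.7, 30.99 and 21.2 CPM. Notch4, an endothelial receptor, rose from 10.3, 10.02 and 9.51 to 21.4, 31.5 and 18.2 CPM. Gja5, a connexin of arterial endothelium, rose from 6.65, 7.31 and 8.16 to 17.9, 21.4 and 17.6 CPM, and Mcam, an adhesion molecule of endothelium and pericytes, rose from 67.2, 47.3 and 51.9 to 108, 136 and 95.8 CPM. General endothelial markers are given beside them. Of 20 genes of blood and lymphatic endothelium edgeR called 0, with 10 at an unadjusted p under 0.05 and 8 called higher and 1 lower by DESeq2, and their summed level was 987, 866 and 807 CPM at day 0 and 1306, 1312 and 1124.0 CPM at day 3. The 3 with the smallest p were Pecam1, with 113, 102 and 106 CPM at day 0 and 213, 231 and 181 CPM at day 3, Plvap, with 113, 90.5 and 78.1 CPM at day 0 and 178, 215 and 137 CPM at day 3, and Emcn, with 12.9, 12.9 and 13.99 CPM at day 0 and 28.6, 33.2 and 27.1 CPM at day 3 (edgeR adjusted p = 0.0575, 0.0592 and 0.0623). In bulk tissue more cells of a type and more RNA per cell cannot be told apart, which holds for all lists here, and the part of endothelial cell number in the vessel results was not tested.

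Among matrix genes, a few single ones rose while the main fibrillar collagens did not pass. Of 32 matrix genes 2 rose and 0 fell, 8 were higher and 3 lower with no overlap, and the median log2 difference was 0.20. Col12a1, a collagen that coats fibrils, rose 4.19-fold, from 60.7, 38.4 and 71.6 to 343, 193 and 179 CPM, and Tnn, a tenascin, rose from 9.38, 5.39 and 7.01 to 25.5, 24.4 and 24.7 CPM. The day 3 libraries of Tnn were nearly alike while those of Col12a1 spread over 1.92-fold. P4ha3, a subunit of collagen prolyl hydroxylase, rose from 5.39, 5.89 and 6.89 to 21.8, 22.3 and 16.4 CPM and was the only one called of 23 genes of collagen hydroxylation and cross-linking. Adamts7, a secreted metalloprotease, rose from 4.98, 3.39 and 5.52 to 19.4, 18.4 and 11.02 CPM, and Ltbp2, which binds microfibrils, rose from 24.6, 25.4 and 21.8 to 63.97, 57.5 and 51.3 CPM. Cemip, which starts the breakdown of hyaluronan, rose 10.7-fold, from 3.3, 0.81 and 1.15 to 32.6, 18.1 and 6.12 CPM, the only one called of 16 tested hyaluronan genes, and its day 3 libraries spread over 5.33-fold. Its log2 difference was 3.42, against 4.27 when day 0 replicate 1 was left out and 2.78 when day 3 replicate 1 was. Summed over the 32 matrix genes, day 0 and day 3 overlapped, at 77083, 92446 and 83042 CPM and 64760, 44801 and 86516 CPM.

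Of 31 matrix metalloproteinases, related proteases and their inhibitors 1 rose and 1 fell. Mmp8, the neutrophil collagenase, rose 5.63-fold, from 4.6, 1.57 and 2.52 to 16.6, 13.8 and 18.7 CPM. Timp3, an inhibitor held in the matrix, fell from 253, 260.1 and 318 to 148, 151 and 202 CPM, by 0.73 ± 0.14 on the log2 scale. Igfbp6, an insulin-like growth factor binding protein of fascia and adventitial fibroblasts, fell 3.00-fold, from 259.6, 389.9 and 418 to 91.2, 109 and 155 CPM. Of 24 genes of resting and adventitial fibroblasts it was the only fall called and Cxcl12 the only rise, 8 were lower and 4 higher with no overlap, and the median log2 difference was -0.33. The summed level of the 24 was 8978, 11109 and 13069.8 CPM at day 0 and 6596, 6646 and 7325 CPM at day 3, lower in each day 3 library, with day 0 replicate 1 nearest to day 3. Without day 0 replicate 1, 5 of the 24 fell (1.19% of all genes did so then), and 6 fell with DESeq2. None of 15 myofibroblast and contractile genes was called by edgeR, with 3 at an unadjusted p under 0.05 and 1 called by DESeq2. The smallest p among them were those of Cald1, with 181, 181 and 183 CPM at day 0 and 242, 239.9 and 233 CPM at day 3, and of the smooth muscle actin Acta2, with 199, 104.5 and 100.2 CPM at day 0 and 208, 249 and 230.0 CPM at day 3.

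Other called genes included 6 of the actin skeleton, picked after their values were seen and not a list with a background of its own. Fblim1, which links filamin to adhesions, rose from 15.8, 6.27 and 8.14 to 38.3, 47.4 and 33.6 CPM. Enah, which extends actin filaments at the leading edge, rose from 47.9, 38.7 and 37.04 to 77.2, 102 and 76.2 CPM, and Fscn1, which bundles them, rose from 59.1, 54.6 and 61.4 to 111, 152 and 91.2 CPM. Actn1 rose from 85.9, 56.4 and 55.1 to 123, 144 and 109.8 CPM, Myh9, the heavy chain of non-muscle myosin, rose from 331, 260.2 and 321 to 487, 461 and 489.7 CPM, and Cnn2, a calponin, rose from 103, 91.1 and 97.4 to 138, 141 and 132 CPM. The libraries of a group differed by less than 2-fold in all of these but Fblim1 at day 0, where replicate 1 was the highest and the spread 2.53-fold. Among transcription factors Runx1, Runx2, Snai2 and Bhlhe40 rose. Runx1 went from 27.05, 23.8 and 28.01 to 48.03, 52.8 and 39.8 CPM and Snai2, a repressor of epithelial adhesion genes, from 14.5, 15.1 and 15.98 to 21.2, 22.7 and 21.97 CPM.

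**Figure D2:**
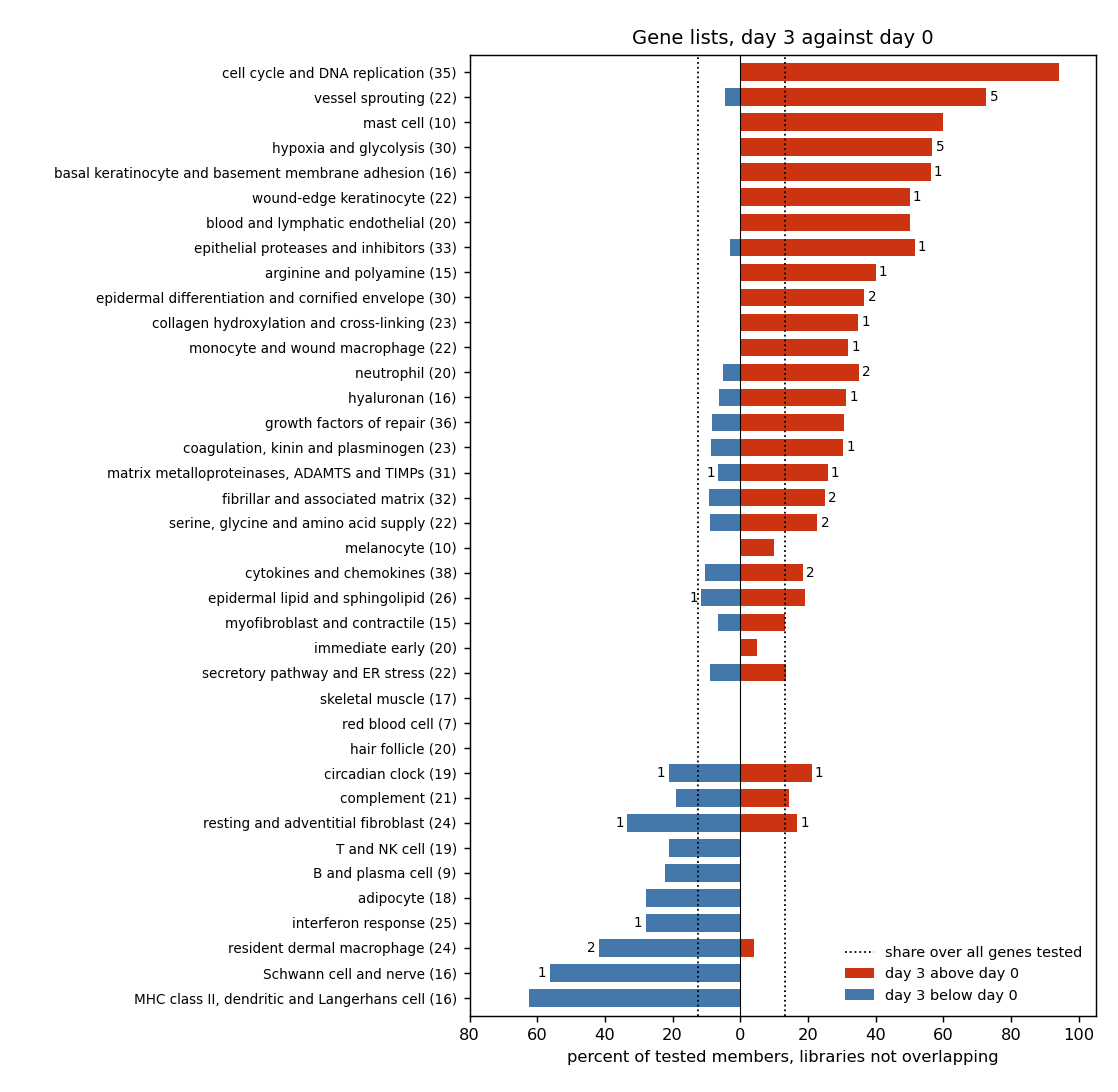
Share of each list's tested members whose 3 day 3 libraries all lay above (red, right) or all below (blue, left) the 3 day 0 libraries, in percent. The number tested is in brackets, the number called by edgeR stands at the bar's end, and dotted lines mark the shares over all 17136 genes, 13.1% and 12.4%. The cell cycle list has the longest red bar with 33 of 35 members and 0 calls, and the list of MHC class II, dendritic and Langerhans cell genes the longest blue bar with 10 of 16 and 0 calls.

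Of 20 neutrophil genes 2 rose, Mmp8 and Csf3r, the receptor of the granulocyte growth factor, which went from 39.2, 22.6 and 30.4 to 85.6, 90.1 and 50.5 CPM. None fell, 7 were higher with no overlap and 1 lower, and the median log2 difference was 1.39. The summed level was 548, 259 and 318 CPM at day 0 and 1308, 925 and 819 CPM at day 3. The granule genes Ltf and Ngp, made by neutrophil precursors in the marrow, were at or under 0.635 CPM in all 6 libraries, and Ngp was at 0 in day 0 replicates 1 and 2 and in day 3 replicate 3. Without day 0 replicate 1, in which the list was highest among the day 0 libraries, 8 of the 20 rose. Ifitm1, a membrane protein of the interferon-inducible family, rose from 17.9, 4.63 and 5.84 to 71.5, 45.8 and 27.1 CPM (2.35 on the log2 scale, and 3.20 without day 0 replicate 1), and Ptx3, a pattern recognition protein, rose from 9.19, 4.3 and 4.43 to 30.2, 23.3 and 16.4 CPM. Clec4n, the lectin Dectin-2 of myeloid cells, rose from 28.3, 23.7 and 23.8 to 70.6, 50.8 and 43.4 CPM.

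Called macrophage genes were 2 falls in the list of resident macrophages and 1 rise in that of wound macrophages. Timd4, a receptor for dying cells that marks long-lived resident macrophages, fell 6.45-fold, from 9.26, 7.16 and 8.14 to 0.808, 1.56 and 1.45 CPM, and Cd209g, a lectin of the same family as DC-SIGN, fell 3.32-fold, from 31.2, 47.3 and 46.8 to 16.7, 11.4 and 9.65 CPM. For both, day 0 replicate 1 lay with or near the other day 0 libraries. Of 24 genes of resident dermal macrophages these 2 fell and 0 rose, 10 were lower and 1 higher with no overlap, and the median log2 difference was -0.64. Their summed level overlapped between groups, at 3833, 4786 and 4331 CPM at day 0 and 4368, 3146 and 3592 CPM at day 3. With DESeq2 8 of the 24 fell (2.07% of all genes did). The largest difference of the list did not pass: Retnla, a secreted product of alternatively activated macrophages, named after its values were seen, had 106, 226 and 263 CPM at day 0 and 1.62, 8.76 and 14.8 CPM at day 3 (edgeR adjusted p = 0.0983). Of 22 genes of monocytes and wound macrophages 1 rose, Arg1, and 0 fell. Their summed level overlapped between groups, at 3384, 4036 and 4863 CPM at day 0 and 4846, 5587 and 5255 CPM at day 3.

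No gene in the lists of antigen presentation and of lymphocytes was called by edgeR. Of 16 genes of MHC class II, dendritic and Langerhans cells edgeR and DESeq2 called 0, 5 had an unadjusted p under 0.05, and 10 were lower with no overlap. Cd74, the invariant chain that escorts MHC class II, had 1175, 1763 and 2022 CPM at day 0 and 942, 830.1 and 896 CPM at day 3, H2-Ab1 523, 755 and 932 CPM at day 0 and 437, 363 and 409 CPM at day 3, and H2-Eb1 431, 658 and 796 CPM at day 0 and 377, 290.4 and 356 CPM at day 3 (edgeR adjusted p = 0.196, 0.23 and 0.25). In each of these 3 day 0 replicate 1 was the lowest day 0 library and nearest to day 3. Of 19 tested T and NK cell genes edgeR called 0, with 7 at an unadjusted p under 0.05 and 1 called lower by DESeq2, and their summed level overlapped, at 244 to 377 CPM at day 0 and 266 to 318 CPM at day 3. The constant region of immunoglobulin A, Igha, fell from 4.92, 6.3 and 13.2 to 1.53, 0.798 and 1.41 CPM (edgeR adjusted p = 0.0479). Of 9 B and plasma cell genes, among which Igha is not counted, edgeR called 0 and DESeq2 2 lower, and their summed level overlapped as well, at 101 to 195 CPM and 87.4 to 105 CPM. Those with the smallest p were Jchain, the joining chain of secreted antibodies, with 1.03, 4.33 and 4.68 CPM at day 0 and 0.471, 0.266 and 0.347 CPM at day 3, Igkc, with 1.71, 4.1 and 7.23 CPM at day 0 and 0.858, 0.491 and 0.571 CPM at day 3, and Ighm, with 94.9, 182 and 173 CPM at day 0 and 81.96, 94.8 and 98.6 CPM at day 3.

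Il33 and Cxcl12 were the only ones called of 38 cytokines and chemokines. Il33, a nuclear cytokine released by damaged epithelium, rose 4.43-fold, from 88.000, 27.9 and 40.6 to 309, 177 and 208 CPM, and day 0 replicate 1 was more than 2-fold above both other day 0 libraries. Without that library the log2 difference was 2.76 in place of 2.15. In the list 7 were higher and 4 lower with no overlap, and without day 0 replicate 1, 9 rose. Tnfsf11, the ligand RANKL, which is outside the list, rose 7.82-fold, from 0.298, 0.304 and 0.496 to 4.36, 3.15 and 1.14 CPM. Kng2, a kininogen from which kinins are cut, rose 9.15-fold, from 0.783, 0.481 and 0.536 to 11.9, 1.82 and 2.84 CPM, the only one called of 23 tested genes of coagulation, kinins and plasminogen, and day 3 replicate 1 was the highest library. Without it the log2 difference was 1.95 in place of 3.19, in a setting in which edgeR called 0 genes in all. Cbln1, a secreted synapse organiser known from the cerebellum, was the rise with the highest fitted fold change, but it was at 0.0373, 0 and 0 CPM at day 0 and at 6.78, 2.85 and 0.694 CPM at day 3, so no fold is given. Of 36 tested growth factors edgeR called 0, with 14 at an unadjusted p under 0.05 and 8 called higher by DESeq2. The smallest p there were those of Wisp1, with 10.2, 12.04 and 14.6 CPM at day 0 and 30.8, 40.8 and 30.5 CPM at day 3, Inhbb, with 31.1, 17.2 and 19.7 CPM at day 0 and 58.1, 40.5 and 35.3 CPM at day 3, and Hgf, with 3.82, 3.85 and 6.29 CPM at day 0 and 10.2, 10.1 and 6.45 CPM at day 3. Of 25 interferon-response genes 0 rose and 1 fell, Ifi208, which is described with the copies below. The fitted difference was below 0 in all 25, with a median of -0.41, and 7 were lower with no overlap.

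Of 10 mast cell genes edgeR called 0, although the unadjusted p was under 0.05 for 5, and DESeq2 called 1 higher and 1 lower. In 6 of them day 3 was higher with no overlap, and the summed level was 317, 255 and 265 CPM at day 0 and 519, 359 and 327 CPM at day 3. The 3 with the smallest p differed in sign. Fcer1a, a chain of the high-affinity receptor for immunoglobulin E, had 2.31, 3.09 and 3.39 CPM at day 0 and 7.09, 9.52 and 3.00 CPM at day 3, and Hdc, the enzyme that makes histamine, had 26.3, 5.64 and 4.27 CPM at day 0 and 62.4, 28.5 and 32.5 CPM at day 3. Tpsab1, a tryptase stored in mast cell granules, had 0.969, 4.05 and 5.18 CPM at day 0 and 0.808, 1.68 and 0.469 CPM at day 3. EdgeR also called 0 of 21 tested complement genes and 0 of 22 genes of the secretory pathway, with 2 and 3 at an unadjusted p under 0.05 and 1 call each by DESeq2, and by either tool 0 of 7 red blood cell genes, of which 0 had an unadjusted p under 0.05. The smallest p in these lists were those of the complement protease Cfi, with 0.224, 0.126 and 0.238 CPM at day 0 and 1.23, 0.86 and 0.775 CPM at day 3, and of Sdf2l1, with 29.3, 30.6 and 30.4 CPM at day 0 and 20.3, 23.8 and 18.95 CPM at day 3.

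Nearly all cell cycle genes lay higher at day 3, by up to 1.39 on the log2 scale, with none called by edgeR. Of 35 genes of the cell cycle and DNA replication 33 were higher in each day 3 library than in each day 0 library, against 13.1% of all genes, and the median log2 difference was 0.93. EdgeR called 0 of them in the 15-library fit, although 29 had an unadjusted p under 0.05, and DESeq2 called 17 higher. Without day 5 replicate 2 and day 7 replicate 3, whose hair keratins stood apart, edgeR called 16, and without day 0 replicate 1 it called 2. The summed level was 961, 887 and 999 CPM at day 0 and 1401, 1793 and 1438 CPM at day 3, so here day 0 replicate 1 lay between the other day 0 libraries. The smallest p were those of Rrm1, a subunit of the enzyme that makes deoxynucleotides, with 51.1, 43.6 and 52.1 CPM at day 0 and 80.8, 92.6 and 94.1 CPM at day 3, Tyms, which makes thymidylate, with 21.2, 17.3 and 20.03 CPM at day 0 and 33.2, 37.8 and 25.5 CPM at day 3, and Ccne1, the cyclin of entry into DNA synthesis, with 4.42, 3.29 and 4.29 CPM at day 0 and 8.06, 10.8 and 6.18 CPM at day 3 (edgeR adjusted p = 0.0659, 0.1 and 0.1). Outside the list Ncapg2, a condensin subunit, rose from 22.1, 18.8 and 22.6 to 40.1, 51.8 and 41.2 CPM, and Nek6, a mitotic kinase, rose from 23.9, 18.2 and 19.99 to 48.7, 49.9 and 30.5 CPM. The list's member with a difference below 0 was Ccnd1, with 132, 154 and 149 CPM at day 0 and 92.8, 138 and 126 CPM at day 3.

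**Figure D3:**
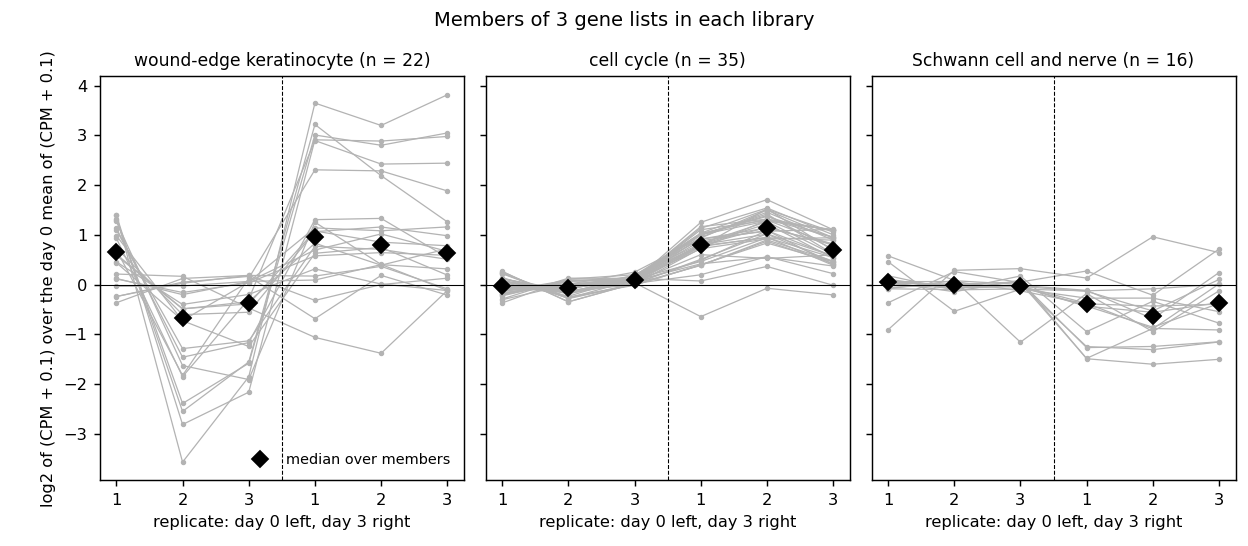
Members of 3 lists in each of the 6 libraries, as log2 of CPM plus 0.1 relative to the day 0 mean of CPM plus 0.1 (grey lines, 1 per gene; black diamonds, medians). In wound-edge genes the median of day 0 replicate 1 was 0.65, near the 0.63 to 0.95 of the day 3 libraries and far from -0.66 and -0.37 in day 0 replicates 2 and 3, whereas in cell cycle genes the day 0 medians lay between -0.073 and 0.089 and those of day 3 between 0.69 and 1.14, and in Schwann cell genes between -0.026 and 0.046 and between -0.62 and -0.37.

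In the list of Schwann cells and nerve 1 gene fell. S100b, a calcium-binding protein of Schwann cells and some other cells, fell 2.12-fold, from 6.69, 10.4 and 8.89 to 3.03, 4.65 and 4.55 CPM, the only one called of 16 genes of Schwann cells and nerve. In 9 of the 16 day 3 was lower with no overlap and in 0 higher. The myelin gene Mbp, named after its values were seen, had 162, 181 and 172 CPM at day 0 and 72.3, 69.3 and 77.1 CPM at day 3 (edgeR adjusted p = 0.115). The libraries of a group differed by at most 1.12-fold, and day 0 replicate 1 lay with replicates 2 and 3. The summed level of the 16 was 924, 904 and 918 CPM at day 0 and 555, 481 and 590.2 CPM at day 3. Of tissue structures beside nerve, 0 of 18 adipocyte, 0 of 17 muscle, 0 of 10 melanocyte and 0 of 20 hair follicle genes were called by edgeR or DESeq2, with 3, 1, 1 and 0 at an unadjusted p under 0.05. The fitted difference was below 0 in 18, 16, 8 and 18 of them, with medians of -0.31, -0.38, -0.27 and -2.90. With no overlap 5 adipocyte genes were lower, against 12.4% of all genes, and 1 melanocyte gene was higher. The summed level of each of these lists overlapped between groups. Hair follicle genes summed to 138, 371 and 1970.4 CPM at day 0 and 125.0, 119 and 258 CPM at day 3, so that day 0 replicate 3 alone was high. That with the smallest p was the hair keratin Krt35, with 0.522, 7.82 and 53.6 CPM at day 0 and 0.64, 1.25 and 2.22 CPM at day 3.

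In the circadian clock Arntl, which with its partner drives the cycle, and its target and repressor Bhlhe40 moved in opposite directions. Arntl fell from 32.02, 35.9 and 39.9 to 17.4, 18.9 and 19.04 CPM, by 0.96 ± 0.12 on the log2 scale (edgeR adjusted p = 0.0303, the lowest of the comparison and shared with Gpr176, an orphan receptor that rose), and Bhlhe40 rose from 47.3, 36.3 and 40.4 to 69.7, 82.05 and 87.7 CPM, by 0.95 ± 0.15. The libraries of a group differed by at most 1.30-fold for both genes, with no overlap between groups. Of 19 clock genes these 2 were called, and 4 were higher and 4 lower with no overlap. Npas2, which can stand in for Arntl's partner Clock, had 6.51, 11.7 and 11.7 CPM at day 0 and 4.36, 3.99 and 4.35 CPM at day 3, and Dbp, an output gene, 23.9, 16.6 and 8.26 CPM at day 0 and 35.8, 46.1 and 51.4 CPM at day 3 (edgeR adjusted p = 0.0592 and 0.162), both named after their values were seen. The hour of sampling is not given in the labels. None of 20 immediate early genes was called by edgeR, with 2 at an unadjusted p under 0.05 and 1 called by DESeq2. That with the smallest p was Ier3, with 31.5, 14.5 and 13.8 CPM at day 0 and 43.7, 38.4 and 49.2 CPM at day 3.

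The 33 falls were of 2 kinds when set out by library. In 22 of them day 0 replicate 1 lay less than 4-fold below the lower of replicates 2 and 3, and the falls ran from 0.50 to 2.97 on the log2 scale. In the other 11 it lay at least 4-fold below both, and these were the 11 largest fitted falls, from 3.39 to 9.10. Eno1b, given above, is one, and Gm13394 had 1.01, 1009 and 1086 CPM at day 0 and 1.4, 1.31 and 1.29 CPM at day 3. Gm10020 went from 0.168, 102 and 99.2 to 0.101, 0.246 and 0.122 CPM and Rpl15-ps2, a ribosomal protein pseudogene, from 0.168, 116 and 107 to 0.118, 0.164 and 0.347 CPM. Ifi208, of the interferon-inducible p200 family, went from 1.1, 17.9 and 18.9 to 0.673, 1.02 and 0.857 CPM. In each of these, day 0 replicate 1 was as low as the day 3 libraries or nearly so, and the difference between the groups came from day 0 replicates 2 and 3. Others of the 11 were Gm10182, Gm436, Gm10093, Gm15446 and Zfp990.

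Most of these 11 genes resemble other genes in sequence. Of the 10 whose transcripts were found in GENCODE M21, 6 had more than 50% of their 31-base words in other genes, counted over all other genes. The median of the 10 was 89.3%. Those under 50% were Gm436 (0%), Ifi208 (34.6%), Gm15446 (43.6%) and Zfp990 (49.4%). Shares with a single gene were counted against only 1 transcript of that gene, so they are lower bounds. Such a share reached 100% of the words of Gm10182, 96.8% of Gm13394 and 89.3% of Gm10020. For Rpl15-ps2, Eno1b and Gm10093 it was at least 70.5%, 65.4% and 31%. Counted over all other genes, 1 of the 22 others passed 50%, the class I histocompatibility gene H2-T10 (64.2%), with a median of 0.632%. Among the 102 rises 3 did, Sprr2a1, Sprr2a3 and Prl2c3. With a single gene, counted against 1 transcript as above, the share was at least 26.7% in H2-T10 and at least 17.2% in Prl2c3. H2-T10 had 9.12, 33.98 and 35.9 CPM at day 0 and 5.49, 7.41 and 6.14 CPM at day 3, so that replicates 2 and 3 were again above replicate 1 by more than 3-fold. In all 102 rises and 27 of the 33 falls the groups did not overlap, so their direction against replicate 1 alone was fixed in advance. When replicate 1 alone stood for day 0, 102 of the 102 rises and 28 of the 33 falls kept their direction. Among the 5 others, the fitted differences of Eno1b, Gm13394, Rpl15-ps2 and Gm10182 were then above 0.

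**Figure D4:**
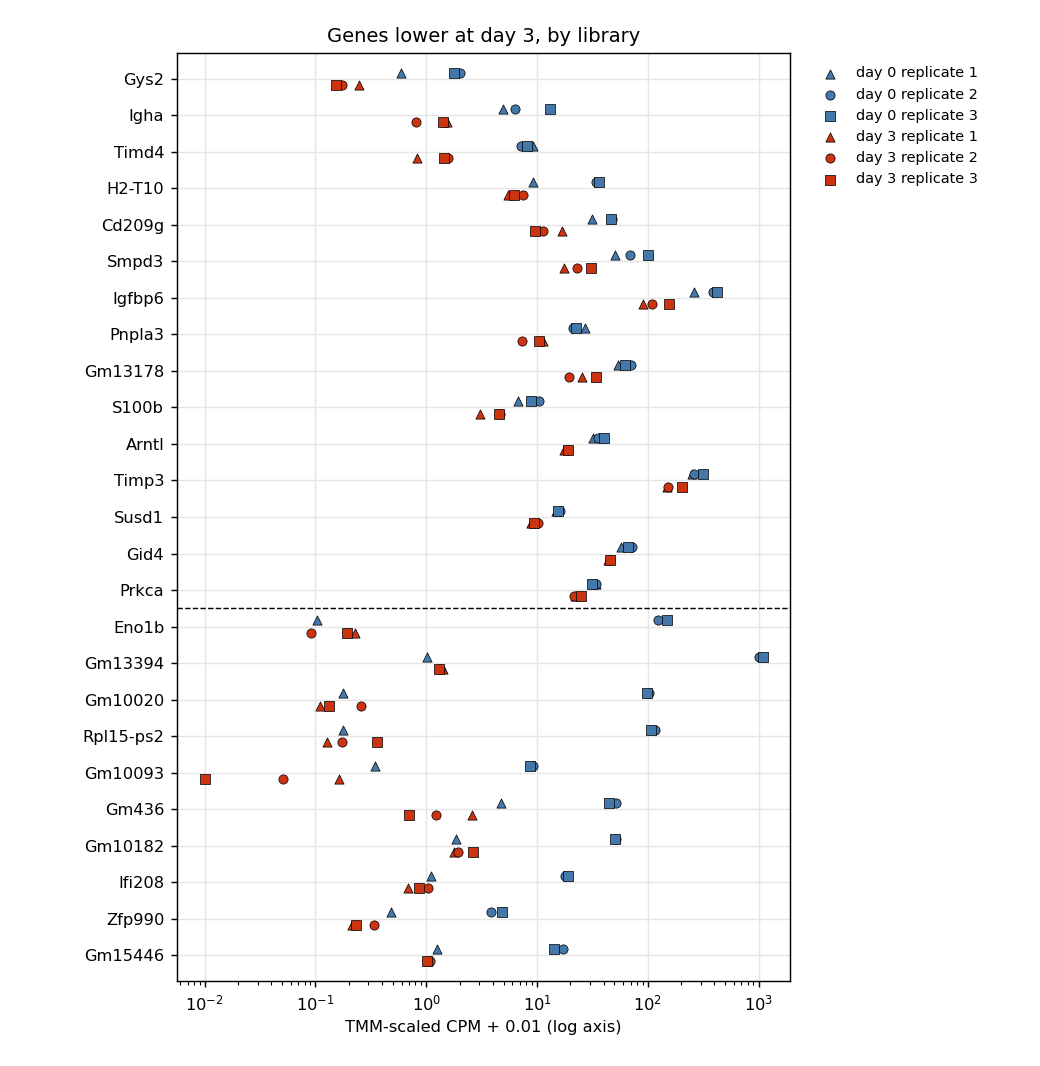
Level of the 25 genes that fell and are named here, in each of the 6 libraries, as TMM-scaled CPM plus 0.01 on a log axis (blue, day 0; red, day 3; triangle, circle and square for replicates 1, 2 and 3). Above the dashed line are 15 genes in which the blue triangle of day 0 replicate 1 is less than 4-fold below the other blue symbols, farthest from them in Gys2 and H2-T10, and below it 10 in which it lies among or near the red ones.

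Among the 22 falls in which day 0 replicate 1 lay nearer to the others, several small ones were even across libraries. Prkca, a protein kinase C, fell from 33.9, 34.001 and 31.5 to 22.01, 21.7 and 25.1 CPM, Susd1 fell from 14.97, 16.3 and 15.5 to 8.77, 10.1 and 9.37 CPM, and Gid4, a subunit of a ubiquitin ligase, fell from 57.3, 72.3 and 65.9 to 43.4, 45.4 and 45.2 CPM. Gm13178, a predicted gene, fell from 53.5, 70.3 and 62.6 to 25.6, 19.4 and 34.01 CPM. These 4 falls were between 1.45-fold and 2.36-fold, and the groups did not overlap in any of them.

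Day 3 differed in few single genes from the times next to it. Against day 1, edgeR called 1 gene of 17136 (0.00584%), Sdf2l1, a helper of protein folding in the endoplasmic reticulum, which was at 56.3, 59.9 and 42.1 CPM at day 1 and 20.3, 23.8 and 18.95 CPM at day 3, lower by 1.33 ± 0.13 on the log2 scale (edgeR adjusted p = 0.00434). DESeq2 called 470 genes in that comparison. Between day 5 and day 3 edgeR called 4 genes (0.0233%), 1 higher and 3 lower (0.0175%) at day 5, and DESeq2 532. Slc16a3, the lactate exporter, was the only one of the 135 among them, at 105.1, 76.1 and 83.4 CPM at day 1, 82.6, 67.7 and 70.2 CPM at day 3 and 30.7, 21.6 and 30.9 CPM at day 5, where it was lower than at day 3 by 1.41 ± 0.16 (edgeR adjusted p = 0.0159). Pf4, a platelet and macrophage chemokine, was at 147, 139.6 and 135 CPM at day 3 and 77.3, 59.01 and 76.8 CPM at day 5, Gm14548 at 8.85, 11.9 and 10.3 CPM and 3.57, 3.06 and 4.03 CPM, and Styk1, a kinase-like receptor, at 7.59, 7.16 and 9.2 CPM and 14.9, 14.002 and 16.8 CPM. The first 2 were lower at day 5 and Styk1 higher. These 4 calls were 0 without the 2 libraries with high hair keratins, but 1 of those, day 5 replicate 2, belongs to the compared day 5 group.

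Across the 5 times the genes called at day 3 took different courses, given as values because the time compared was also the time of choice. Mmp8 was at 21.7, 21.4 and 27.8 CPM at day 1 and 6.56, 2.42 and 4.76 CPM at day 5, around the 16.6, 13.8 and 18.7 CPM of day 3. Krt14 stood at 2549.8, 2276 and 5439.8 CPM, 4934, 4299 and 5897 CPM and 3652, 2712 and 3997 CPM at these times. Tnn reached 65.8, 21.1 and 47.6 CPM at day 5 and 63.1, 59.04 and 52.2 CPM at day 7. Timd4 was at 2.69, 1.82 and 2.42 CPM at day 1 and 1.41, 1.48 and 0.561 CPM at day 7. Arntl was at 19.8, 20.3 and 18.5 CPM at day 1, 18.02, 19.3 and 14.01 CPM at day 5 and 34.7, 29.5 and 31.98 CPM at day 7. Of these 5 genes none differed between day 3 and day 1 or between day 5 and day 3 at an edgeR adjusted p under 0.05.

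**Figure D5:**
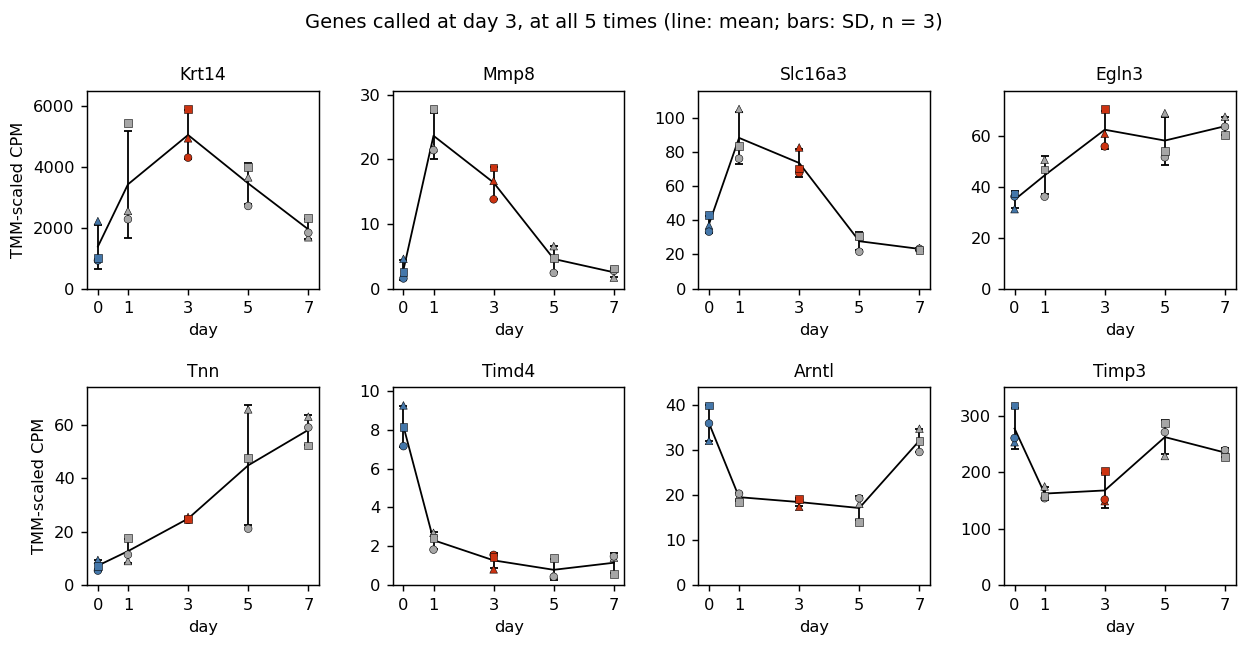
Level of 8 genes called at day 3 across the 5 times, as TMM-scaled CPM (points, libraries; line, mean; bars, SD, n = 3; blue, day 0; red, day 3; grey, other times). Mmp8 and Slc16a3 have their highest mean at day 1, Krt14 at day 3, and Tnn and Egln3 at day 7, while Timd4, Arntl and Timp3 have their highest mean at day 0.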

How the data were processed

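The authors deposited 1 file per library with estimated counts per gene symbol, made, per the submitters' processing notes, with kallisto 0.43. For its index, the annotation and the build there is no statement in the sources used here. As the use of strand is not given, a gene and its antisense or overlapping partner cannot be separated. RNA came from total RNA with an mRNA-seq library kit, per the labels' protocols. Of 30307 rows, 26 that carry dates in place of symbols were left out (0.157% to 0.168% of the counts in these 6 libraries). The deposited estimated counts were whole numbers. Genes past edgeR's expression filter (minimum count 10), 17136 of 30281, were fitted with edgeR 4.0.16 (limma 3.58.1, R 4.3.3) in 1 robust quasi-likelihood model of the 5 times over all 15 libraries with TMM scaling, and tested two-sided by contrasts with Benjamini-Hochberg adjustment at 0.05. Log2 fold changes carry a standard error derived from the F statistic. The common biological coefficient of variation was 30.9%, so the spread between libraries, not counting error, limits all but the lowest genes. DESeq2 1.42.0, limma-voom and other settings served as alternatives.

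The genes compared and the 38 lists (804 genes, of which 794 were tested) were chosen with earlier results of these data known, and no list was tested as a set. Genes named are the called ones, first the 15 highest and 15 lowest with at least 5 CPM and no overlap, and per list up to 4 called members or the 3 with the smallest p. Other names, tissue markers and gene copies aside, are said to be chosen after their values were seen. Words of 31 bases were counted in GENCODE M21 transcripts (134 of the 135 called genes matched). A word counted as shared when any other gene held it. Some genes that the rule names are not reported here. Promoters are from RefSeq (GRCm38.p6). Same-numbered day 0 and day 3 libraries had deviations from their group means that correlated at 0.244, -0.0051 and 0.197, and differently numbered ones at -0.262 to 0.053. Over all times 13 of the 30 same-numbered pairs exceeded 0.1, with a range of -0.73 to 0.49. The labels do not say what the numbers share, so the main fit did not pair the samples. These values do not settle whether some are paired.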

Additional observations from a re-analysis of the deposited data

How the results depend on the processing

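The count of 135 (102 higher, 33 lower) stayed within 1.5 times under relative log expression scaling, no scaling and a minimum count of 50. It was 943 (588 and 355) with DESeq2, 82 (64 and 18) with limma-voom and 71 (58 and 13) with no filter, where 23687 genes were tested. On the 6 libraries alone it was 202, with 164 higher, and 65 genes were shared with the 135. Leaving out each library in turn gave 0 to 629 genes, 0 to 422 higher and 0 to 207 lower. With the replicate block, which the labels do not justify as a pairing, it was 78 (68 and 10), of which 69 were among the 135. Without day 5 replicate 2 and day 7 replicate 3, an alternative added after seeing the data, it was 697 (475 and 222), all 135 included. When replicate 1 alone stood for day 0, also added after seeing the data, it was 0, with 0 higher and 0 lower (1051 genes had an unadjusted p under 0.05), and the lone library is then assumed to vary like the other groups. In that setting the log2 differences of Eno1b, Gm13394, Rpl15-ps2, Gm10182, Krt35 and Tpsab1 were 0.80, 0.41, 0.31, 0.19, 1.39 and 0.036, opposite to the main sign. No called gene changed sign when a library was left out, but for all but 6 of them the groups did not overlap, which largely fixed that outcome in advance.

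Against day 1 the count of 1 was 470 with DESeq2, 2 with limma-voom, 4 with the replicate block and 260 without the hair keratin libraries. It was 0 to 1 when a single day 3 library was left out. Between day 5 and day 3 the count of 4 was 532 with DESeq2, 8 with limma-voom, 9 with no filter and 10 with a minimum count of 50. It was 1 with the replicate block and 0 without the hair keratin libraries (2082 genes had an unadjusted p under 0.05), among which is day 5 replicate 2. When a single day 3 library was left out it was 0 to 25. Day 1 and day 5 libraries were not left out in turn. Why these counts differ was not tested. Depth limits the genes under about 1 CPM, such as Sprr2k, Cbln1, Gys2 and Gm10093, whose fold changes rest on few counts in the lower group.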
